A study of Mus musculus with 6 samples.

Results

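Interleukin-10 signaling was followed through 10 genes of the 54532 measured: the cytokine genes Il10 and Il19, the receptor chain genes Il10ra and Il10rb, the transcription factor gene Stat3, and Socs1, Socs2, Socs3, Socs7 and Cish of the suppressor of cytokine signaling (SOCS) family. The genes were chosen by name, with earlier results of these data known, so counts set beside shares of all tested genes are descriptive. They were measured by RNA-seq of poly-A RNA from bone-marrow-derived macrophages (BMDMs) of C57BL/6 mice, grown in medium conditioned by L929 cells, a fibroblast line that supplies macrophage growth factor. The 6 libraries form 3 groups of 2, replicates A and B, which are untreated BMDMs, BMDMs that received LPS at 100 ng/ml for 2 h (LPS), and BMDMs kept in metformin at 5 mM for 6 h before the same exposure to LPS (Met + LPS). No group received metformin alone, so an effect of metformin on unstimulated cells was not measured. The cells were seeded in duplicate, and nothing in the sources used here says that A and B came from different mice, so p-values measure the spread between these libraries, which may be technical.

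LPS, from the cell envelope of Gram-negative bacteria, is sensed by macrophages through TLR4. Among the genes it induces is Il10, whose product is an anti-inflammatory cytokine that acts back on the macrophage. IL-10 binds a receptor made of the ligand-binding chain IL-10Rα (Il10ra) and the shared chain IL-10Rβ (Il10rb), the Janus kinases JAK1 and TYK2 phosphorylate STAT3, and STAT3 drives genes that restrain inflammatory transcription. SOCS proteins are induced by cytokine signaling and in turn block it, SOCS3 at gp130 receptors such as that of IL-6, SOCS1 mainly at interferon receptors, and CIS (Cish) at receptors that use STAT5.

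Because STAT proteins bind the palindrome TTCNNNGAA, promoter sequences from RefSeq (GRCm38.p6, from 250 bases before to 50 bases after the start site, 300 bases in all) were searched for it. The promoter table held 5 of the 10 genes, Il19, Stat3, Socs1, Socs3 and Cish, and 3 of these 5 had a match. The motif reads the same on both strands, so that each match counts once, and 8.3% of all 32851 promoters of this length held at least 1. The 3 promoters with a match are printed 5′ to 3′ on the strand of the gene, with the matches in capitals, beside that of Socs1, which LPS also induced and which had none.
Il19, chr1:130940066-130940365, minus strand: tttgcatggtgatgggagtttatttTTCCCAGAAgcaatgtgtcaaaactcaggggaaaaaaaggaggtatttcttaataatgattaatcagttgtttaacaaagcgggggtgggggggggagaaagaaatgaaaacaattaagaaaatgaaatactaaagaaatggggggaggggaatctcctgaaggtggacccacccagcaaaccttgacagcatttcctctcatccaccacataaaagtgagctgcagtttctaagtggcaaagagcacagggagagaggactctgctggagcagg
Socs3, chr11:117969317-117969616, minus strand: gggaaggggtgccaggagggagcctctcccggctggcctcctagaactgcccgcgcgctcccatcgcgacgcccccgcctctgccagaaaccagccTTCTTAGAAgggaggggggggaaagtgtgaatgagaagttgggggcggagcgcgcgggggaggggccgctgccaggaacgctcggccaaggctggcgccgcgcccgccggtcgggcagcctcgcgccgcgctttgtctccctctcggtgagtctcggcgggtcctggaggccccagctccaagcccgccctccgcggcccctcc
Cish, chr9:107296409-107296708, plus strand: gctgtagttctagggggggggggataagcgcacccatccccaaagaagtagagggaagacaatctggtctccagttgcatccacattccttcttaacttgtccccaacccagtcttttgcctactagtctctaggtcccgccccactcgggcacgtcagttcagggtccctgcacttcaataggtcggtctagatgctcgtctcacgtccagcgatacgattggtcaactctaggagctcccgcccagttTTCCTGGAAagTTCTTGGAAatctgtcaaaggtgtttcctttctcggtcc
Socs1, chr16:10785487-10785786, minus strand: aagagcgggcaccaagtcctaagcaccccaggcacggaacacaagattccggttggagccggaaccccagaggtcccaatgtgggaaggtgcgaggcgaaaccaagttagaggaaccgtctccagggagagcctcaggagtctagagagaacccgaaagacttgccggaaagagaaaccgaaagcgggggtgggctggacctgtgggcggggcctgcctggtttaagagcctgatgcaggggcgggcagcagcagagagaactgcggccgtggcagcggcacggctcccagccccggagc
The match began at position -225 from the start site in Il19 and at -154 in Socs3. Cish held 2 matches, beginning at positions 1 and 12, and 0.457% of all promoters held 2 or more. The RefSeq start of Il19 was also a transcript start in the GENCODE annotation, whereas for Socs3 the nearest GENCODE transcript start lay 85 bases upstream of it and for Cish 51 bases downstream, so that these positions hold for the RefSeq start alone. A match is a description of the letters and not evidence that a STAT protein binds there.

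The authors deposited TPM, in which a count is set against the length of its gene and the values of each library add up to 1 fixed sum, so that TPM levels can be compared between genes. Reads on genes, recovered from the TPM values, ranged from 25457016 to 30762754 per library. All 8 macrophage markers reached 1 TPM, and their summed level did not overlap between groups, at 44621 and 46599 TPM in untreated BMDMs, 37903 and 37412 TPM after LPS, and 30877 and 30948 TPM in Met + LPS. Most of this sum was Lyz2, at 26974 and 26696 TPM in LPS and 21203 and 21381 TPM in Met + LPS. Fcgr1 was at 153 and 177 TPM in LPS and at 74.9 and 73.8 TPM in Met + LPS. Cd68 overlapped between these groups, at 4971 and 4583 TPM in LPS and 4767 and 4800 TPM in Met + LPS. The other markers were all lower in Met + LPS than in LPS without overlap. Adgre1 and Cd14 were higher in LPS than in untreated BMDMs. The part of these differences in the results was not tested. Markers of other cell types were low. Those of neutrophils and their precursors summed to 24.4 to 30.9 TPM in the untreated and LPS libraries and to 40.2 and 42.0 TPM in Met + LPS, a difference whose part in the results was not tested, and those of T, B and NK cells to 3.71 to 8.18, 0.0550 to 0.515 and 0.0859 to 0.305 TPM. In bulk RNA, fewer cells that express a gene and less RNA per cell cannot be told apart.

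Each gene with at least 1 TPM in at least 2 libraries (12755 genes) was tested in limma on log2(TPM + 1) with Benjamini-Hochberg adjustment over all tested genes, and all adjusted p-values below are from this fit. A gene passed the test at an adjusted p-value under 0.01. It was called where the log2 fold change was also at least 2 in size for LPS vs. untreated, or at least 0.7 for Met + LPS vs. LPS. Of the 10 genes, 9 were tested, and Socs2 was below 1 TPM in every library.

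LPS raised the cytokine genes, Il10ra and most of the SOCS genes, and Socs3 the most. Of the 9 tested genes, 5 were called higher after LPS (Il10, Il19, Socs1, Socs3 and Cish) and 0 were called lower, where 3.72% of all tested genes were called higher and 2.37% lower. Voom on the recovered reads also called 5 higher and 0 lower. By the test alone, and also at an unadjusted p-value under 0.05, 8 were higher and Il10rb was lower, against 16.2% higher and 60.1% lower among all tested genes. The LPS and untreated libraries did not overlap for any of the 9, but neither did they for 91.6% of all tested genes. The median log2 fold change over all tested genes was -0.48, and it was -0.01 after the libraries were rescaled by the median ratio over genes. Genes called higher made up 474 of the 776 calls, and 663 of 792 after rescaling.

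Il10 (ENSMUSG00000016529, chromosome 1, 131019845 to 131024974) was at 4.52 and 4.16 TPM in the untreated libraries, 156 and 165 TPM in the LPS libraries, and 67.9 and 66.0 TPM in Met + LPS. Both stimulated groups lay far above the untreated libraries, and both Met + LPS libraries lay well below both LPS libraries. Il10 rose by 4.92 on the log2 scale after LPS (standard error 0.05, adjusted p = 4.6e-09).

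Il19 (ENSMUSG00000016524, chromosome 1, 130932656 to 130940115), a cytokine of the IL-10 family, was at 0.229 and 0.121 TPM in untreated BMDMs, 18.4 and 15.1 TPM after LPS, and 11.3 and 11.1 TPM in Met + LPS. The untreated values rest on 2 and 1 reads, and the 3 groups did not overlap. The log2 fold change after LPS was 3.91 (standard error 0.11, adjusted p = 2.8e-07). Since adding 1 TPM shrinks the change of a gene this low, the ratio of reads per library total is given too, 96.4, with a 95% counting interval of 32.6 to 470.

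Il19 and Il10 lie on chromosome 1 in a cluster of genes of the same family that also holds Il20 and Il24. Il24 was listed at 0 in all 6 libraries, and Il20 ranged from 0 to 0.335 TPM. The gap between Il19 and Il10 is 79729 bases, and Il20 lies 21204 bases from Il19.

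The receptor chains moved apart. Il10ra (ENSMUSG00000032089, chromosome 9, 45253837 to 45269149) was at 145 and 151 TPM in untreated BMDMs, 373 and 389 TPM after LPS, and 220 and 222 TPM with metformin pretreatment. The Met + LPS libraries lay between the other groups, with no overlap. Il10ra rose by 1.36 on the log2 scale after LPS (standard error 0.04, adjusted p = 2.5e-07), which is short of the cut-off of 2.

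Il10rb (ENSMUSG00000022969, chromosome 16, 91406164 to 91425834) was at 186 and 185 TPM in untreated BMDMs, 118 and 123 TPM after LPS, and 137 and 133 TPM in Met + LPS. It was the only one of the 10 genes with lower values after LPS, and its log2 fold change was -0.62 (standard error 0.04, adjusted p = 9.2e-06). This decrease was close to the median of all tested genes, and after rescaling it was -0.10 with an adjusted p of 0.0628. Of the exon bases of Il10rb, 14.9% also belong to the gene model Gm21970, which makes its counts less certain.

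The ratio of Il10ra to Il10rb, a comparison chosen after the values were seen, was 0.781 and 0.815 in untreated BMDMs, 3.17 and 3.16 after LPS, and 1.60 and 1.67 in Met + LPS. Untreated BMDMs thus held more Il10rb than Il10ra transcript and both stimulated groups the reverse. A ratio within a library does not depend on how libraries are scaled.

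Stat3 (ENSMUSG00000004040, chromosome 11, 100885098 to 100939540) was at 62.9 and 64.3 TPM in untreated BMDMs, 78.1 and 87.2 TPM after LPS, and 49.6 and 48.3 TPM in Met + LPS. Its range was narrow compared with the cytokine genes, and in TPM the Met + LPS libraries were the lowest of the 6. That order depends on the scaling, since after rescaling Met + LPS was above untreated BMDMs by 0.16 on the log2 scale (adjusted p = 0.0446 in limma). The log2 fold change after LPS was 0.37 (standard error 0.06, adjusted p = 7.9e-04), and 0.89 after rescaling. Without untreated replicate A the adjusted p for LPS was 0.0118.

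Among the SOCS genes, Socs3 (ENSMUSG00000053113, chromosome 11, 117966079 to 117970047) was at 3.18 and 2.70 TPM in untreated BMDMs, 1637 and 1790 TPM after LPS, and 1122 and 1063 TPM in Met + LPS. It went from few transcripts to the level of the most abundant genes, rank 75 of all genes in LPS and 112 in Met + LPS. On the log2 scale Socs3 rose by 8.77 after LPS (standard error 0.07, adjusted p = 1.8e-09).

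Socs1 (ENSMUSG00000038037, chromosome 16, 10782240 to 10785536) was at 1.58 and 1.06 TPM in untreated BMDMs, 88.0 and 103 TPM after LPS, and 52.6 and 55.1 TPM in Met + LPS. The LPS libraries differed from each other by more than those of Met + LPS did, and the groups did not overlap. Socs1 rose by 5.38 on the log2 scale after LPS (standard error 0.12, adjusted p = 1.1e-07).

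Cish (ENSMUSG00000032578, chromosome 9, 107296026 to 107302784), with the pair of motif matches at its RefSeq start site, was at 0.0820 and 0.174 TPM in untreated BMDMs, 46.9 and 47.4 TPM after LPS, and 24.1 and 21.7 TPM in Met + LPS. The untreated values rest on 4 and 8 reads. The log2 fold change after LPS was 5.42 (standard error 0.08, adjusted p = 1.5e-08), and the ratio of reads per library total was 378 (95% counting interval 216 to 732). Of its exon bases, 11.5% also lie in the antisense gene models Gm17040 and Gm17041, and whether the counting used strand is not given in the sources used here.

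Socs7 (ENSMUSG00000038485, chromosome 11, 97362551 to 97398542), a SOCS gene already present in untreated BMDMs, was at 19.2 and 18.0 TPM there, 59.6 and 61.2 TPM after LPS, and 50.9 and 50.3 TPM in Met + LPS. It rose after LPS, by 1.65 on the log2 scale (standard error 0.05, adjusted p = 2.8e-07). This is short of the cut-off, which it passed after rescaling, at 2.15.

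Socs2 (ENSMUSG00000020027, chromosome 10, 95385362 to 95417180), best known as a brake on growth hormone signaling, was at 0.207 and 0.205 TPM in untreated BMDMs, 0.538 and 0.532 TPM after LPS, and 0.694 and 0.557 TPM in Met + LPS. These values rest on 14 to 50 reads per library. The ratio of reads per library total between LPS and untreated BMDMs was 2.63 (95% counting interval 1.69 to 4.19), and between Met + LPS and LPS it was 1.16 (0.849 to 1.59). On recovered reads, in limma voom with a minimum of 10 reads, the log2 fold change of Socs2 after LPS was 1.36 (adjusted p = 2.5e-04), and for Met + LPS vs. LPS it was 0.20 (adjusted p = 0.493).

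**Figure D1:**
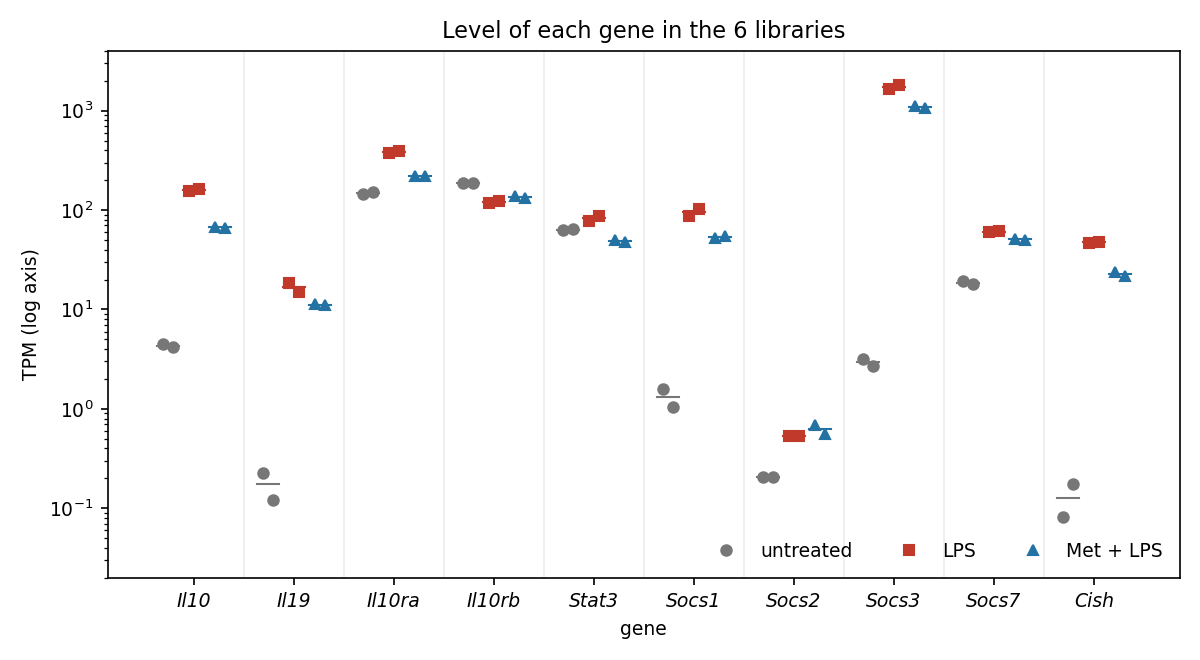
TPM (log axis) of the 10 genes in each library, with grey circles for untreated BMDMs, red squares for LPS and blue triangles for Met + LPS, and a line at the mean of each pair. Socs3 rises from a mean of 2.94 TPM to the highest level of the 10 genes. Il10rb is the only gene higher in untreated BMDMs than in LPS. Il10, Il19, Il10ra, Il10rb, Socs1, Socs3, Socs7 and Cish in Met + LPS lie between the other groups.

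Metformin pretreatment lowered the transcript levels of most of these genes in LPS-stimulated BMDMs, Il10 the most. Of the 9 tested genes, 5 were called lower in Met + LPS than in LPS (Il10, Il10ra, Stat3, Socs1 and Cish) and 0 were called higher, where 4.09% of all tested genes were called lower and 4.19% higher. By the test alone 8 were lower and 0 higher, against 18.0% lower and 14.5% higher among all tested genes, and Il10rb did not pass. At an unadjusted p-value under 0.05 in limma 8 were lower and 1 higher, and voom on the recovered reads also called 5 lower and 0 higher. The libraries did not overlap for any of the 9, which was also so for 73.8% of all tested genes. This comparison and that of LPS with untreated BMDMs share the LPS libraries.

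Il10 averaged 160 ± 5.87 TPM in LPS and 66.9 ± 1.33 TPM with metformin pretreatment (SD, n = 2 each). This was a log2 fold change of -1.25 (95% interval -1.37 to -1.12, adjusted p = 1.6e-05 in limma). The next largest change was that of Cish, at -1.01 (-1.20 to -0.83, adjusted p = 1.2e-04). Il10 and Cish were the only 2 of these genes still called at a log2 fold-change cut-off of 1.

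Il10ra had a log2 fold change of -0.78 (95% interval -0.87 to -0.69, adjusted p = 2.2e-05), and Stat3 one of -0.74 (-0.88 to -0.61, adjusted p = 1.3e-04). Both intervals reach past the cut-off of 0.7 towards 0. Without LPS replicate B the Stat3 value was -0.66, short of the cut-off, whereas Il10ra was called without each of the 4 libraries in turn. The cytokine, its ligand-binding receptor chain and the transcription factor it activates were thus all called lower in Met + LPS, while the Il10rb transcript was not.

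Socs1 had a log2 fold change of -0.81 (95% interval -1.10 to -0.52, adjusted p = 0.00194), the least precise of these values. Its call was lost without LPS replicate B (-0.70, adjusted p = 0.0158), without Met + LPS replicate A (adjusted p = 0.0186) and without Met + LPS replicate B (adjusted p = 0.0145). Socs3 had a log2 fold change of -0.65 (-0.82 to -0.48, adjusted p = 5.4e-04) and averaged 1714 ± 108 TPM without metformin and 1093 ± 42.2 TPM after it (SD, n = 2 each). It was short of the cut-off, which it passed at -0.71 without LPS replicate A.

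Il19 and Socs7 passed the test with smaller changes. Il19 had a log2 fold change of -0.54 (95% interval -0.80 to -0.28, adjusted p = 0.00691), and its adjusted p was between 0.0367 and 0.0418 without LPS replicate A, Met + LPS replicate A or Met + LPS replicate B. Socs7 had a log2 fold change of -0.25 (-0.36 to -0.14, adjusted p = 0.00455), with an adjusted p between 0.0187 and 0.0306 when each of the 4 libraries was left out in turn. Il10rb was at 0.17 (0.07 to 0.26, adjusted p = 0.0116), and after rescaling at 0.18 with an adjusted p of 0.00961. It also passed the test as higher with voom (adjusted p = 0.00269) and in limma with a minimum of 5 TPM (adjusted p = 0.00698).

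**Figure D2:**
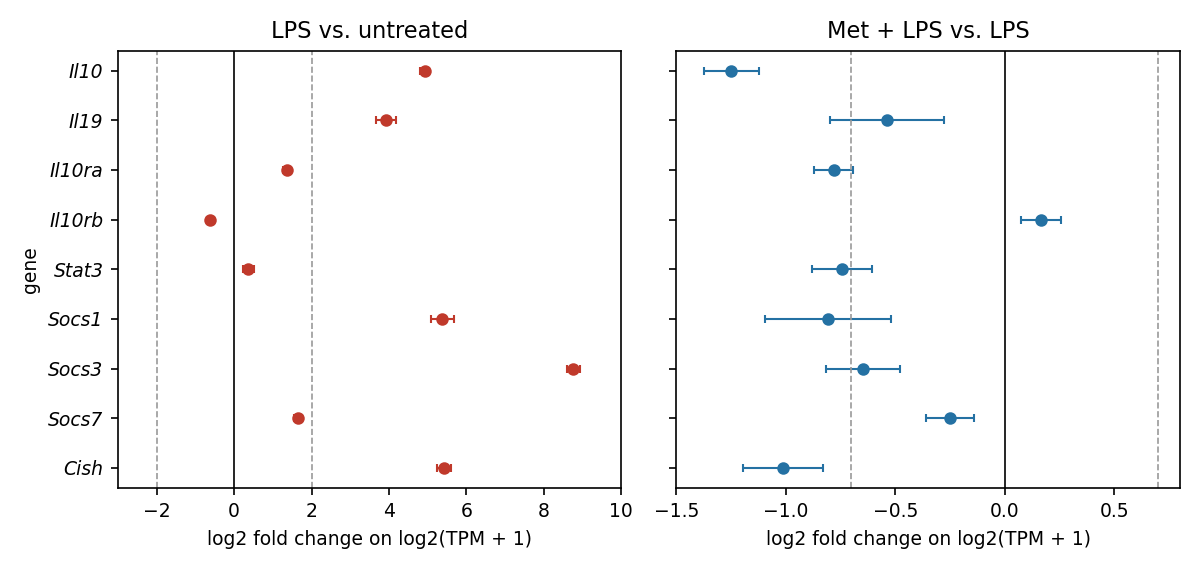
Log2 fold changes on log2(TPM + 1) of the 9 tested genes for LPS vs. untreated (left) and Met + LPS vs. LPS (right), with bars for the 95% interval and dashed lines at the log2 cut-offs of 2 and 0.7. On the left only Il10rb lies below 0, at -0.62, and on the right it alone lies above 0, at 0.17, with Il10 farthest to the left at -1.25.

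Set against untreated BMDMs, Met + LPS BMDMs still had higher levels of most of these genes. With the cut-off of 2, the same 5 genes as in LPS were called higher (Il10, Il19, Socs1, Socs3 and Cish), where 3.18% of all tested genes were. By the test alone 7 genes were higher, against 16.3% of all tested genes. Il10rb and Stat3 were lower, at -0.45 and -0.37, against 58.8% of all tested genes. After rescaling these were at 0.08 (adjusted p = 0.0951) and 0.16 (adjusted p = 0.0446), so that the direction of Il10rb and Stat3 against untreated BMDMs depends on the scaling. The comparison shares its libraries with the other comparisons.

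The part of the LPS response left in Met + LPS was computed for the 5 called genes, as the difference from untreated BMDMs in percent of that in LPS, on log2(TPM + 1). With no group on metformin alone, any effect of metformin on unstimulated cells is contained in this difference and cannot be told apart from the LPS response. It was 74.6% for Il10, with 73.4% to 75.8% over single libraries. Cish kept 81.3% (79.6% to 82.9%) and Socs1 kept 85.0% (82.1% to 87.8%). Il19 kept 86.3% (82.9% to 89.7%) and Socs3 kept 92.6% (91.4% to 93.8%).

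The ranges of Il10 and Socs3 overlapped with no other gene of the 5, while that of Socs1 overlapped with those of Cish and Il19. On linear TPM the part left was 40.1% for Il10, 48.4% for Cish, 55.9% for Socs1, 63.7% for Socs3 and 66.4% for Il19. Il10 is lowest on both scales, and Socs3 and Il19 change places. The log2 values also depend on the 1 TPM added. With a pseudocount of 0.1, the log2 fold changes against untreated BMDMs were 7.73 in LPS and 6.68 in Met + LPS for Cish. They were 6.09 and 5.27 for Socs1, and 5.96 and 5.39 for Il19. The parts left of Cish and Il19 are then above the ranges given here, and those of Cish and Socs1 are nearly equal.

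**Figure D3:**
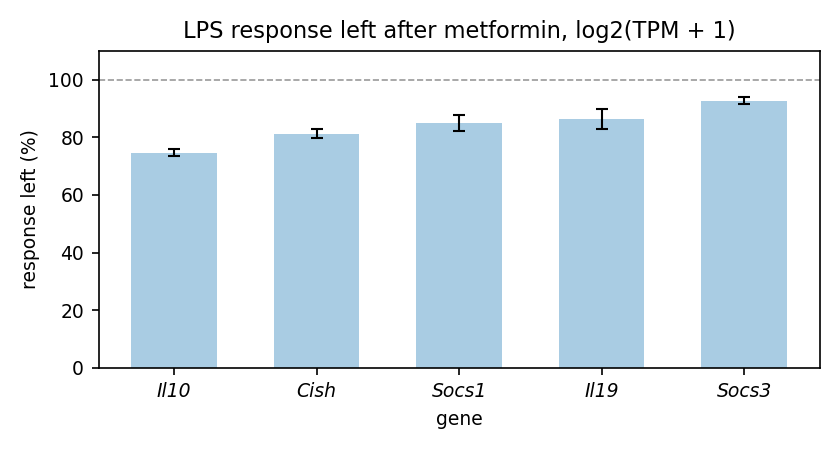
Part of the LPS response left in Met + LPS, in percent on the log2(TPM + 1) scale, for the 5 genes called after LPS. Bars are computed from group means, and error bars span the values from single libraries. The dashed line is the difference between LPS and untreated BMDMs (100%), which no bar or error bar reaches. An effect of metformin on unstimulated cells was not measured and is not separated out.

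The order of the levels changed with stimulation. In untreated BMDMs it ran from Il10rb and Il10ra through Stat3, Socs7, Il10, Socs3 and Socs1 to Socs2, Il19 and Cish, of which the last 3 were all under 1 TPM. Socs2 overlapped with Il19 there, and Il19 with Cish. After LPS the order was Socs3, Il10ra, Il10, Il10rb, Socs1, Stat3, Socs7, Cish, Il19 and Socs2, and no neighbours overlapped.

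In Met + LPS, Il10rb stood above Il10 and Socs7 above Stat3, and the order was otherwise that of LPS, again with no overlap between neighbours. Socs3 was 18.6 and 17.4 times as abundant as Socs1 in the LPS libraries and 21.3 and 19.3 times in Met + LPS. The ratio of Il10 to Il19 was 8.49 and 10.9 in LPS and 6.01 and 5.94 in Met + LPS. Both ratios were chosen after the values were seen, and neither overlapped between these groups.

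The other SOCS genes did not follow this pattern. Without stimulation Socs6 was at 37.3 ± 1.82 TPM, after LPS at 9.99 ± 0.875 TPM, and with metformin pretreatment at 20.4 ± 0.384 TPM (SD, n = 2 each). Its log2 fold change after LPS was -1.80 (adjusted p = 1.3e-06), short of the cut-off, and it was called higher in Met + LPS, at 0.96 (adjusted p = 1.0e-04). Socs4 had a log2 fold change of -0.73 after LPS (adjusted p = 1.6e-05), or -0.23 after rescaling, and it was at 0.26 in Met + LPS vs. LPS (adjusted p = 0.00634). Socs5 was at -0.23 (adjusted p = 0.00866), or 0.28 after rescaling, and at -0.13 in Met + LPS vs. LPS (adjusted p = 0.108). Of the whole family of 8, 7 were tested. After LPS 3 of these were called higher, against 3.72% of all tested genes. In Met + LPS 1 was called higher and 2 lower than in LPS, against 4.19% and 4.09% of all tested genes. SOCS4, SOCS5 and SOCS6 are less tied to JAK-STAT feedback than CIS and SOCS1 to SOCS3.

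The remaining ligands and receptor chains of the family were hardly expressed. Of 7 receptor chain genes 3 were tested, and besides Il10ra and Il10rb this was Il20rb, a chain of the receptor for IL-19, IL-20 and IL-24. Il20rb was at 1.25 ± 0.349, 3.12 ± 0.584 and 1.30 ± 0.0189 TPM in untreated, LPS and Met + LPS BMDMs (SD, n = 2 each). Its log2 fold change in Met + LPS was -0.83 (adjusted p = 0.0058), a call lost in 8 of 15 alternatives. Il20ra, its partner in one of these receptors, was listed at 0 in all libraries.

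The 11 Janus kinase and STAT genes were all tested. After LPS 2 were called, Jak2 at 4.26 (adjusted p = 1.7e-09) and Stat5a at 3.70 (adjusted p = 4.6e-09). Both were called higher, where 3.72% of all tested genes were called higher and 2.37% lower. The median of the 11 was 0.52, against -0.48 over all tested genes. JAK2 and STAT5 act downstream of growth factor receptors such as that of GM-CSF.

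In Met + LPS, Stat5a and Stat3 were called lower and 0 higher, where 4.09% of all tested genes were called lower and 4.19% higher. By the test alone 9 of the 11 were lower and 0 higher, against 18.0% and 14.5% of all tested genes. The median log2 fold change of the 11 was -0.34, against -0.03 over all tested genes. Stat5a went from 252 ± 9.41 to 133 ± 1.31 TPM (SD, n = 2 each), and its log2 fold change was -0.92 (adjusted p = 1.8e-05). Jak2 was at -0.46 (adjusted p = 1.0e-04). Stat6, the factor used by IL-4, and Stat4 did not pass the test, at 0.08 and -0.24.

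Inhibitors of JAK-STAT signaling outside the SOCS family, the PIAS proteins and the phosphatases, gave 0 of 9 calls in either comparison in limma, a count near the background, since after LPS 3.72% of all tested genes were called higher and 2.37% lower, and with metformin 4.19% and 4.09%. After LPS 3 of them passed the test as higher and 5 as lower, against 16.2% and 60.1% of all tested genes, and the same numbers had an unadjusted p-value under 0.05. In Met + LPS, 1 passed as higher and 3 as lower, against 14.5% and 18.0%, with 1 and 5 at an unadjusted p-value under 0.05, and their median was -0.11. Pias3, named after its value was seen, was at -0.66 there and was called lower with voom on the recovered reads (-0.73), with a pseudocount of 0.1 (-0.72), without LPS replicate B (-0.71) and without Met + LPS replicate A (-0.74). After rescaling, Ptpn2, also named after its value was seen, was called higher after LPS, at 2.16.

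Genes that STAT3 or IL-10 is known to regulate were read as a list of 18, of which 17 were tested and none is among the 10 genes above. After LPS 7 were called higher and 1 lower, against 3.72% and 2.37% of all tested genes. The median log2 fold change of the 17 was 1.70, against -0.48 over all tested genes. Bcl3 (3.96), an inhibitory partner of NF-κB p50, Il1rn (3.79), the IL-1 receptor antagonist, and Pim1 (3.54), a survival kinase, were highest. Vegfa, the angiogenic factor, was the gene called lower, at -2.75.

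In Met + LPS, 8 of the 17 were called lower than in LPS and 3 higher, against 4.09% and 4.19% of all tested genes. The median of the 17 was -0.53, against -0.03 over all tested genes. Sbno2, a corepressor in the IL-10 response, went from 106 ± 5.80 to 28.7 ± 0.609 TPM, below its 47.4 ± 1.01 TPM in untreated BMDMs (SD, n = 2 each). Its log2 fold change was -1.84 (adjusted p = 5.9e-06). Timp1, a metalloprotease inhibitor, was at -1.79 (adjusted p = 2.3e-04), and Il4ra, a chain of the IL-4 receptor, at -1.71 (adjusted p = 6.1e-06).

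The 3 genes called higher were Vegfa (1.68), Myc (1.40) and Il1rn (0.97). Il1rn had been raised by LPS as well, from 21.9 ± 0.0457 to 316 ± 0.495 TPM, and reached 620 ± 5.57 TPM in Met + LPS (SD, n = 2 each). Genes of this list, whether called lower or higher, can have regulators besides STAT3 and IL-10, and the cause of these changes was not tested.

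**Figure D4:**
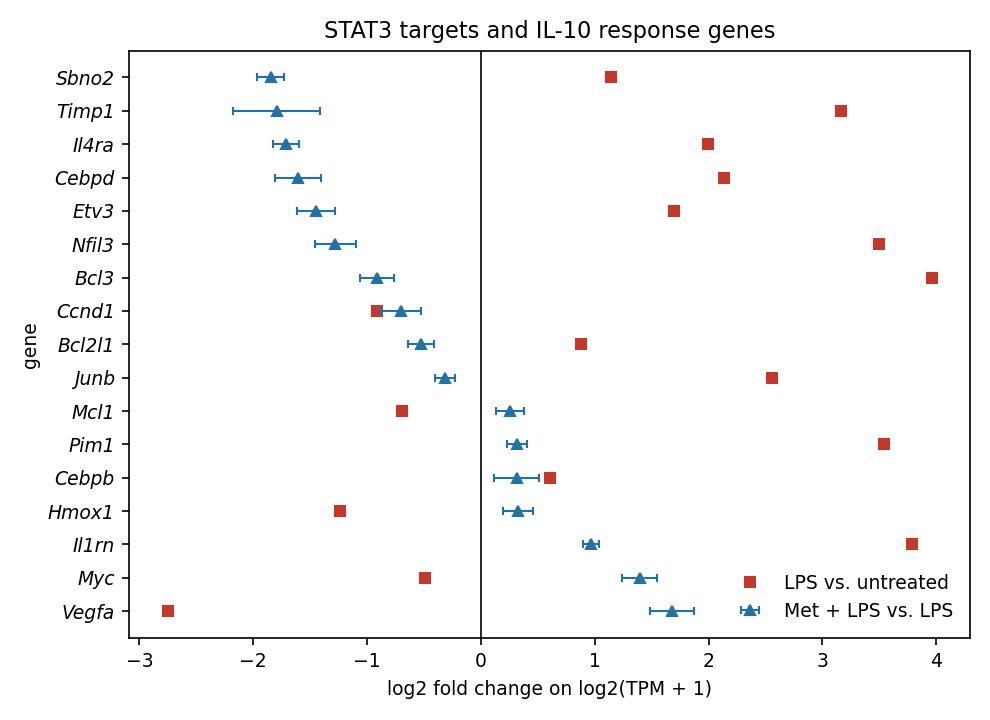
Log2 fold changes on log2(TPM + 1) of the 17 tested STAT3 targets and IL-10 response genes, with red squares for LPS vs. untreated and blue triangles with 95% intervals for Met + LPS vs. LPS. The genes are ordered by their change in Met + LPS, from Sbno2 (-1.84) at the top to Vegfa (1.68) at the bottom.

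Among 14 genes for transcription factors, cofactors, kinases and RNA-binding proteins that act on Il10 transcription or mRNA decay, calls were near the background in both comparisons. After LPS 1 was called higher, against 3.72% of all tested genes, and this was Zfp36 at 2.15 (adjusted p = 2.4e-07), which encodes tristetraprolin, a protein that destabilizes cytokine mRNAs. Prdm1, named after its value was seen, was at 1.96 and was called too with voom, a pseudocount of 0.1 or rescaling. In Met + LPS 0 of the 14 were called in limma or in voom with all libraries, against 4.19% higher and 4.09% lower of all tested genes. There, 5 passed the test as higher and 3 as lower (7 and 4 at an unadjusted p-value under 0.05), against 14.5% and 18.0%, and the median was 0.11. Zfp36 was at -0.68 (adjusted p = 1.9e-04), just short of the cut-off, and was called lower without LPS replicate A (-0.74) and without Met + LPS replicate A (-0.74).

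Other cytokines and receptors that feed STAT3 through gp130 moved in both directions. Of 11 genes 9 were tested, and Il27 (8.12) and Il6 (7.18) were called higher after LPS, against 3.72% of all tested genes. With a pseudocount of 0.1 and with voom 4 were called, as Lif and Clcf1 were added. Clcf1, named after its value was seen, rests on 1 and 0 untreated reads and was at 1.91 and 2.18 TPM after LPS. It had a log2 fold change of 1.58 there (adjusted p = 5.4e-05). In Met + LPS 2 of the 9 were called higher and 1 lower than in LPS, against 4.19% and 4.09% of all tested genes. Il6 was at 0.17 (adjusted p = 0.0889) in this comparison and Il27 at -0.59 (adjusted p = 0.0117).

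The leukemia inhibitory factor gene Lif was at 0.0302 and 0.0321 TPM in untreated BMDMs, on 1 read each, and LPS brought it to 2.39 and 2.20 TPM. The log2 fold change of 1.68 (adjusted p = 6.3e-06) is shrunk by adding 1 TPM, and with voom it was 5.65. It was called higher in Met + LPS, from 2.30 ± 0.128 to 13.4 ± 0.0306 TPM (SD, n = 2 each), and its log2 fold change was 2.13 (adjusted p = 2.0e-05). Osm, which encodes oncostatin M, was called higher too, from 4.15 ± 0.502 to 14.2 ± 0.253 TPM, at 1.56 (adjusted p = 3.5e-05). The receptor gene Lifr was called lower at -0.77 (adjusted p = 0.00173), from 1.91 ± 0.0223 to 0.704 ± 0.0576 TPM, a call lost in 4 of 15 alternatives. Lif and Osm thus moved opposite to Il10 with metformin.

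The tested genes whose log2(TPM + 1) values in the 6 libraries, relative to the mean of the untreated libraries, lay nearest to that of Il10 by Euclidean distance were Mmp14, a membrane metalloprotease gene (0.50), the gene model Gm12250 (0.53) and Saa3, an acute-phase gene (0.69). Mmp14 and Saa3 had larger log2 fold changes in Met + LPS than Il10, at -1.73 and -1.42, and Gm12250 a smaller one, at -0.73. For Socs3 they were Gbp5 (0.61), Il12b (0.72) and Ccl5 (0.77), all genes with very large changes after LPS. In Met + LPS these were at -0.09 (adjusted p = 0.171), 0.01 (adjusted p = 0.875) and -0.49 (adjusted p = 3.0e-04), and Socs3 at -0.65, so that the likeness to Socs3 rests mostly on the LPS response.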

How the data were processed

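RNA-seq libraries of BMDMs were analysed in 3 groups of 2. Per the labels and the paper's methods, the authors enriched poly-A RNA, prepared libraries with an Illumina TruSeq kit, and aligned the reads to GRCm38 (mm10). The submitters' processing notes name STAR 2.6.1d, SAMtools 1.9 and featureCounts of Subread 1.6.3. The authors deposited TPM for 54532 genes with replicates kept apart, and how counts became TPM is not given in the sources used here. The unit has no depth of its own and hides differences in total RNA per cell.

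Reads were recovered because TPM times the exon length (GENCODE vM21 annotation, 54495 genes matched) was a whole multiple of a common step, within 0.02, for 96.1% to 96.3% of the values above 0. Counting intervals cover counting error only.

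A gene entered the test if 2 or more libraries reached 1 TPM. The test used limma (version 3.58.1, under R 4.3.3) and log2(TPM + 1), in a single fit of all 6 libraries with a mean-variance trend (3 residual degrees of freedom), and Benjamini-Hochberg adjustment. The fold-change cut-offs of 2 (LPS vs. untreated) and 0.7 (Met + LPS vs. LPS) were those of the study's methods. The study applied them to DESeq2 results on counts, so the calls made here are not equivalent to its calls. The cut-off of 2 for Met + LPS against untreated BMDMs was set here. Python 3.11.15 made the tables (pandas 2.3.3, numpy 2.4.6 and scipy 1.17.1) and plots (matplotlib 3.10.9).

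The 10 genes and the gene lists were chosen with earlier results of these data known. Named were the 10 genes, Socs4 to Socs6, from each list at most the 3 largest called changes in each direction of LPS vs. untreated and Met + LPS vs. LPS, and the 3 genes most like Il10 and Socs3. Il20, Il24, Il20ra, Stat4, Stat6 and the macrophage markers Fcgr1, Lyz2, Cd68, Adgre1 and Cd14 were named outside this rule, after their values were seen. The same holds for the genes marked so in the text. Alternatives tried were median-ratio rescaling, a pseudocount of 0.1, a minimum of 5 TPM or none, a block for the replicate letter, a fit of the compared groups alone, no trend, voom on the reads, other cut-offs, non-overlap of libraries and leaving out each library. Voom with a minimum of 10 reads was added after seeing the data.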

Additional observations from a re-analysis of the deposited data

How the results depend on the processing

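The number of the 10 genes called after LPS stayed within 5 to 7 under the 16 alternatives, and 5 to 6 were called in Met + LPS against untreated BMDMs. For Met + LPS vs. LPS the number was 2 at a log2 fold-change cut-off of 1, 4 without a filter on low values, where Socs1 had an adjusted p of 0.0141 in limma, and 3 to 6 on leaving out single libraries. By the test alone, with no fold-change cut-off, between 5 and 8 of the genes passed as lower in this comparison. Il19, Socs1 and Socs7 were those that dropped out, Il19 also with a pseudocount of 0.1 (adjusted p = 0.063) and for the compared groups only (0.0167). Il10, Il10ra, Stat3, Socs3 and Cish passed the test in all of them. Il10rb passed as higher with voom, with a minimum of 5 TPM and with rescaling.

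Rescaling by the median ratio turned 3 directions, those of Socs5 after LPS (0.28) and of Il10rb (0.083) and Stat3 (0.16) in Met + LPS against untreated BMDMs, as it moved the median of all genes. The log2 fold change of Il12b in Met + LPS vs. LPS ranged from -0.0077 to 0.031 on leaving out single libraries. Fold changes of genes with few untreated reads depended on the scale, and with voom that of Il19 after LPS was 6.21 and that of Cish 8.53.

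With the replicate letter as a block, 5 genes were called after LPS, 5 in Met + LPS vs. LPS and 5 in Met + LPS against untreated BMDMs, as without it. The labels do not say that a letter marks a pair. Over the 12755 tested genes the deviations of same-lettered libraries had correlations of -0.00, 0.03 and 0.01, a description only, since genes are not independent. With 2 libraries a group, the interval of a log2 fold change of these genes reached between 0.09 and 0.29 to either side.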
